A study of Mus musculus with 12 samples.

Results

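The core circadian clock of the mouse lung was followed through 10 genes: the activators Arntl, Clock and Npas2, the repressors Per1, Per2, Per3 and Cry1, the repressors of Arntl named Nr1d1 and Nr1d2, and the output factor Dbp. They were chosen by gene symbol, each was found once among the 20793 rows of the deposited table, and all 10 passed the filter on low values. The lungs came from C57BL/6J mice in 4 groups of 3 libraries. The groups were 60% fat with more than 95% oxygen, 60% fat with room air, 10% fat with more than 95% oxygen, and 10% fat with room air. Diet lasted 12 weeks in every group, and the series title places the work in obesity and oxygen injury of the lung. The order of diet and exposure is unclear in the design text. The length of exposure, the age and sex of the mice, the hour at which lungs were taken and the light schedule are not given in the sources used here. Nothing in the labels states that the 3 libraries of a group came from separate animals, so p-values here measure the spread between these libraries, which may be partly technical.

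The clock is a loop of transcription that runs in nearly every cell, lung cells included, on a daily cycle. ARNTL (BMAL1) pairs with CLOCK or NPAS2 on E-box sequences and switches on the Per and Cry genes, the Nr1d genes and Dbp. PER and CRY proteins then block that pair, NR1D1 and NR1D2 (REV-ERB alpha and beta) repress Arntl through ROR elements, and DBP drives further genes through D-box sequences. Per1 is also a direct target of the glucocorticoid receptor.

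Start-site sequence was read for the 9 members that matched RefSeq entries on GRCm38.p6, with Per2 unmatched. The motifs searched on both strands, from 250 bases before to 50 after each start, were the E-box CACGTG, the D-box TTATGTAA or TTACGTAA, the ROR element core TAGGTCA and the cyclic AMP element TGACGTCA, and none of the hits overlapped another motif. The 250 bases before the start are shown for Cry1, Per3 and Per1, since Cry1 and Per3 moved furthest in opposite directions on the 60% fat diet and Per1 moved furthest on the 10% fat diet. Capitals mark an E-box in Cry1 and Per1 and a D-box in Per3.
Cry1, chr10:85185055-85185304, minus strand: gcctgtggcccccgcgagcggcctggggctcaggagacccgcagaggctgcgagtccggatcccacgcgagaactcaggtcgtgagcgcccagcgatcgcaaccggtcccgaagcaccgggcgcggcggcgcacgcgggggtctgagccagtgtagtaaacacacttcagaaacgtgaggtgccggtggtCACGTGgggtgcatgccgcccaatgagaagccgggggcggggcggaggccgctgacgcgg
Per3, chr4:151044666-151044915, minus strand: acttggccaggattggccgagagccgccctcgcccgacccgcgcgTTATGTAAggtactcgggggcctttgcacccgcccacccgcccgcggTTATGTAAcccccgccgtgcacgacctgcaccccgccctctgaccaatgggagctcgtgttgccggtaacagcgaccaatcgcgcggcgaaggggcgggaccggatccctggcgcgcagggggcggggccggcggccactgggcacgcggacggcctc
Per1, first start, chr11:69098699-69098948, plus strand: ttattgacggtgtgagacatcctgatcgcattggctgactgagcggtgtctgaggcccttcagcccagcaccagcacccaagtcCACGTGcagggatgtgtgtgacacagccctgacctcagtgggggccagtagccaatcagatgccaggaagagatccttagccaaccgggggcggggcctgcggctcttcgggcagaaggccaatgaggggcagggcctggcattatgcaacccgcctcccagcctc
The E-box lay at -60 to -55 in Cry1 and at -166 to -161 in Per1, counted from the start, and 7.15% of all 32851 promoter windows held one. Per3 held the D-box TTATGTAA at -205 to -198 and again at -158 to -151, against 1.06% of windows with any D-box. A ROR element core lay at 30 to 36 after the second start of Arntl (2.61% of windows). The cyclic AMP element (1.79% of windows) was found in 0 of the 9 members. Counted by gene, 8.09% held an E-box and 1.23% a D-box. The ROR element core was in 2.97% of genes and the cyclic AMP element in 2.03%. A match describes the letters and is no evidence of binding, and a window without one says nothing about the factor.

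Values are RPKM, by definition reads scaled to the length of the transcript and to the mapped total of the library. How they were computed here is not given, so levels set side by side between genes are approximate. In room air, over the libraries of both diets, median levels ran from Nr1d1 (40.2 RPKM) and Per1 (35.5 RPKM) through Clock (17.1 RPKM), Arntl (15.7 RPKM), Nr1d2 (14.2 RPKM), Per2 (11.8 RPKM) and Cry1 (10.4 RPKM) down to Per3 (5.36 RPKM), Npas2 (4.57 RPKM) and Dbp (3.42 RPKM). The range of each gene overlapped that of the next in this order, apart from the step from Per1 to Clock. Under oxygen the median order was Per1 (70.4 RPKM), Nr1d1 (65.6 RPKM), Clock (23.1 RPKM), Cry1 (22.7 RPKM), Nr1d2 (22.0 RPKM), Arntl (19.1 RPKM), Per2 (13.2 RPKM), Dbp (6.80 RPKM), Npas2 (4.07 RPKM) and Per3 (2.33 RPKM). There the ranges of neighbours did not overlap from Nr1d1 to Clock, from Arntl to Per2 and from Npas2 to Per3, and overlapped at the other steps. Cry1 stood below Per2 in median in air and above it under oxygen, and Per3 moved from above Npas2 to the lowest place.

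**Figure D1:**
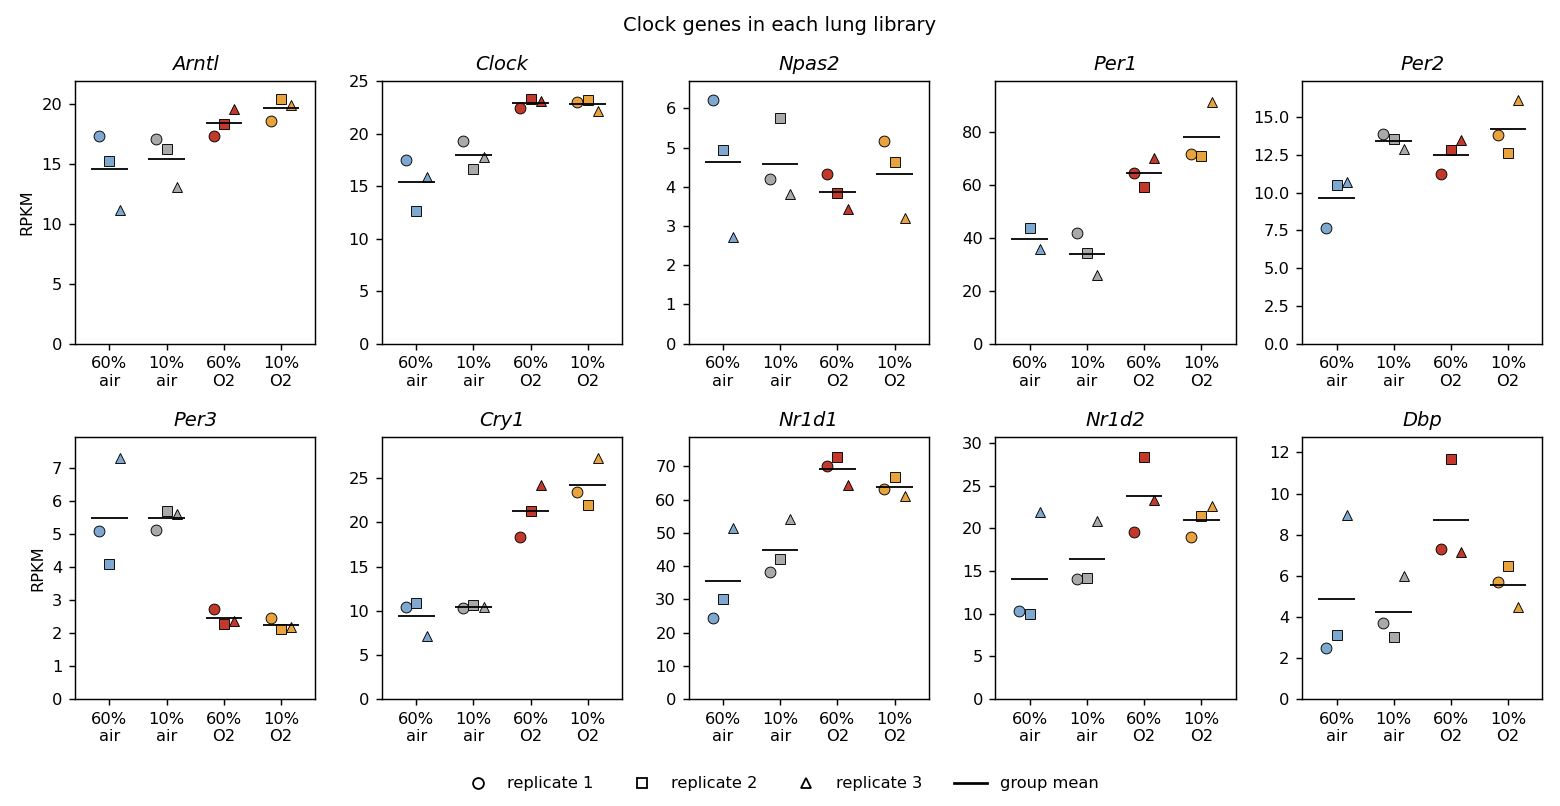
RPKM of the 10 clock genes in each of the 12 lung libraries, by group, with a symbol for each replicate number and a line at the group mean; each axis starts at 0. Cry1 sits between 18.3 and 27.3 RPKM in the oxygen libraries and between 7.09 and 10.9 RPKM in room air, and Per3 between 2.13 and 2.71 RPKM under oxygen and between 4.10 and 7.31 RPKM in room air.

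The room-air libraries numbered 3 stood apart in both diets, and results are given with and without them. On the log2 scale the 60% fat library 3 lay above its group mean by 1.01 for Dbp, 0.72 for Nr1d2 and 0.60 for Nr1d1, with Arntl at -0.35 and Npas2 at -0.61. The 10% fat library 3 deviated in the same directions, by 0.51 for Dbp, 0.36 for Nr1d2, 0.28 for Nr1d1, -0.23 for Arntl and -0.22 for Npas2. The same 2 libraries also carried the most RNA of the myeloid marker lists among the room-air lungs. The 4 macrophage markers summed to 2185 and 5987 RPKM there and to 441 to 884 RPKM in the other room-air libraries, mostly from Chi3l3. The 4 neutrophil markers, led by S100a8 and S100a9, summed to 3440 and 2829 RPKM against 431 to 1026 RPKM. Csf3r went the other way in 60% fat library 3, at 18.3 RPKM against 24.6 and 19.7 RPKM in the room-air libraries numbered 1. Marco was barely highest there, at 10.11 RPKM against 10.07 RPKM in 10% fat room-air replicate 2. The other listed genes of both lists were highest in the libraries numbered 3. The part of macrophages and neutrophils, or of the hour of collection, in the clock values was not tested. One oxygen library, 10% fat replicate 3, also had a high neutrophil sum, 1770 RPKM against 89.3 to 448 RPKM in the other oxygen libraries.

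**Figure D2:**
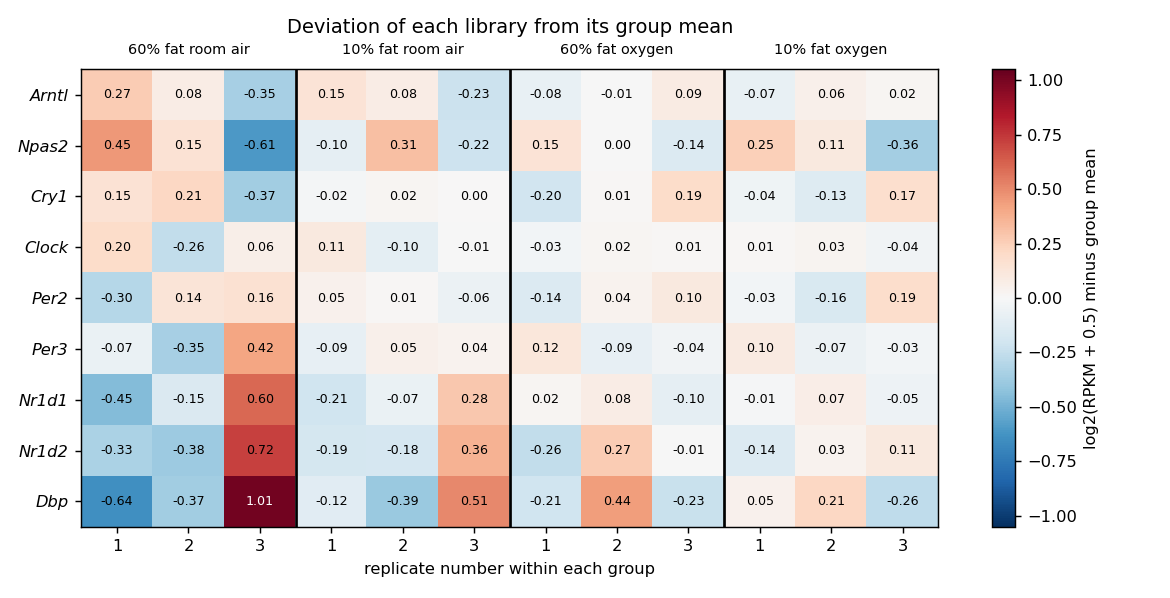
Deviation of each library from its group mean, as log2(RPKM + 0.5), for the 9 clock genes with a value in all 12 libraries; columns are libraries by group and replicate number, red is above and blue below the mean. The room-air libraries numbered 3 are red for Nr1d1, Nr1d2 and Dbp (up to 1.01) and blue for Arntl and Npas2 (down to -0.61).

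The first comparison set oxygen against room air in lungs of mice on 60% fat. Clock genes follow a daily cycle, and the hour at which lungs were taken is not given. The exposure and a difference in hour between groups therefore cannot be told apart, on either diet. Of the 10 clock genes, 8 rose and 1, Per3, fell, while Npas2 did not pass the test. The count of 9 was 5 without oxygen replicate 2 and 5 without room-air replicate 2. The test was limma on log2(RPKM + 0.5) with p-values adjusted over all 13324 genes tested, called at 0.05. Most of the lung transcriptome differed between the exposures, 62.8% of tested genes in either direction (26.3% higher and 36.5% lower). A call alone therefore did not set a clock gene apart. The median change of the 10 was 0.64 and that of all tested genes -0.09. The groups did not overlap for 7 of the 10, against 66.5% of all tested genes.

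In lungs of mice on 10% fat, 4 clock genes rose (Clock, Per1, Cry1 and Nr1d1) and Per3 fell, with 5 of the 10 not called. The count of 5 was 3 without room-air replicate 2. The share called among all tested genes was 59.5% (25.3% higher and 34.2% lower). The median change of the 10 was 0.36, beside -0.08 over all tested genes, and 6 of the 10 had groups that did not overlap, against 67.5%. In bulk lung, fewer cells of a type and less RNA per cell cannot be told apart, and the values describe the RNA of the whole tissue.

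**Figure D3:**
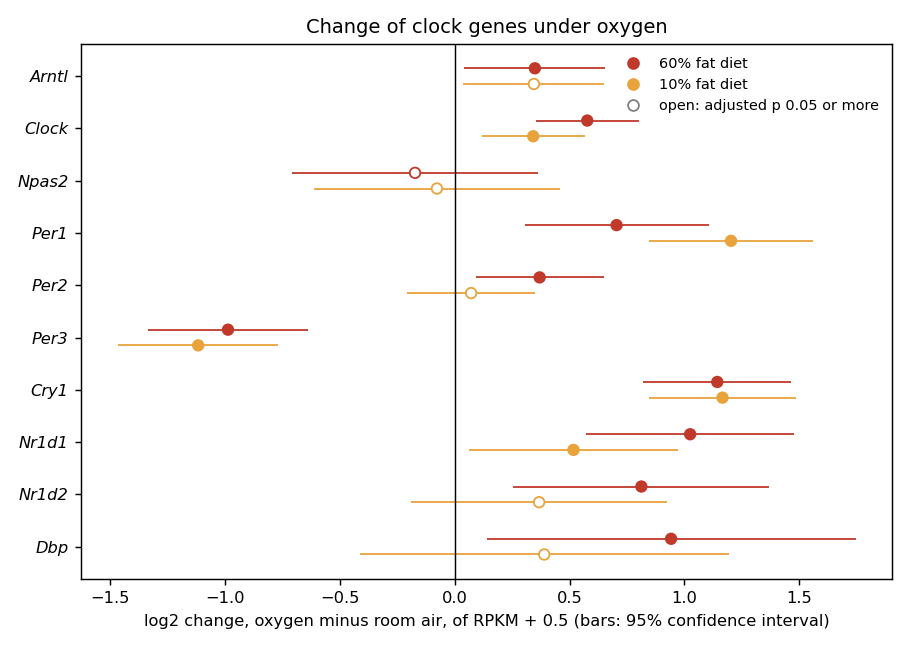
Change of each clock gene under oxygen, as the limma estimate of log2(RPKM + 0.5) in oxygen minus room air, with its 95% confidence interval, on each diet; open circles have an adjusted p of 0.05 or more. Cry1 is near 1.14 and 1.17 and Per3 near -0.99 and -1.12 on the 60% and 10% fat diets.

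Among the activators, Clock, which encodes the DNA-binding partner of ARNTL, varied little under oxygen. In the 60% fat lungs it stood at 22.4, 23.3 and 23.1 RPKM under oxygen and at 17.5, 12.7 and 15.9 RPKM in room air. In the 10% fat lungs it stood at 23.0, 23.2 and 22.2 RPKM under oxygen and at 19.3, 16.7 and 17.8 RPKM in room air. Every oxygen library was above every room-air library of either diet. Clock rose by 0.58 ± 0.10 (SE) on the log2 scale in the 60% fat lungs, which is 1.49-fold (adjusted p = 0.000386). In the 10% fat lungs it rose by 0.34 ± 0.10, 1.27-fold (adjusted p = 0.0126), and that call was lost in 2 of 18 other settings, without room-air replicate 2 (adjusted p = 0.0524) and with RPKM rescaled without Scgb1a1 (adjusted p = 0.0556).

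Arntl, the obligate partner of CLOCK and NPAS2, was at 17.4, 18.3 and 19.6 RPKM under oxygen and 17.3, 15.2 and 11.2 RPKM in air on the 60% fat diet. On the 10% fat diet the values were 18.6, 20.4 and 19.9 RPKM under oxygen and 17.0, 16.2 and 13.0 RPKM in air. The groups did not overlap on either diet, but the 60% fat values met at 17.4 and 17.3 RPKM. The change was 0.35 ± 0.14 (adjusted p = 0.0465) on 60% fat and 0.34 ± 0.14 (adjusted p = 0.0513) on 10% fat, nearly the same size on either side of the threshold. The 60% fat call was lost without any 1 of oxygen replicates 1, 2 and 3 or room-air replicates 2 and 3, and it held in 8 of 18 other settings. Without room-air replicate 3 the change was 0.18 (adjusted p = 0.220), and only without room-air replicate 1 was it kept (adjusted p = 0.0108). The 10% fat change passed without room-air replicate 1 (adjusted p = 0.0387). It passed in 6 of 18 other settings (adjusted p 0.0202 to 0.0489 in those 6), and the adjusted p over all 18 was 0.0202 to 0.199.

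Npas2, the paralogue that can stand in for CLOCK, showed no call. It was at 4.31, 3.83 and 3.44 RPKM under oxygen and 6.21, 4.95 and 2.72 RPKM in air on 60% fat, and at 5.18, 4.63 and 3.21 RPKM against 4.20, 5.75 and 3.82 RPKM on 10% fat. The groups overlapped on both diets, with replicate 3 the lowest library in each of the 4 groups. The estimates were -0.17 (95% interval -0.71 to 0.36, adjusted p = 0.560) and -0.08 (-0.61 to 0.46, adjusted p = 0.802).

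The repressor Cry1, whose protein binds and blocks the CLOCK and ARNTL pair, had the largest estimate of the 10 on the 60% fat diet with all libraries. Without room-air replicate 3 its change was 0.96, beside 1.45 for Dbp and 1.33 for Nr1d1. In the 60% fat lungs it was at 18.3, 21.3 and 24.3 RPKM under oxygen and at 10.4, 10.9 and 7.09 RPKM in air. In the 10% fat lungs it was at 23.4, 21.9 and 27.3 RPKM under oxygen and at 10.3, 10.6 and 10.5 RPKM in air. All oxygen libraries were above all room-air libraries, with a wide gap. It rose by 1.14 ± 0.15 on 60% fat, 2.21-fold (adjusted p = 3.15e-05), and by 1.17 ± 0.15 on 10% fat, 2.24-fold (adjusted p = 3.20e-05). The deposited table places Cry1 at chromosome 10, 84594444 to 84647799, on a build that the notes do not settle between mm8 and mm9.

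Per3, a Period gene whose loss has mild effects on the mouse clock, moved in the opposite direction to Per1. It was at 2.71, 2.28 and 2.38 RPKM under oxygen and at 5.08, 4.10 and 7.31 RPKM in air on 60% fat. The 10% fat libraries were at 2.44, 2.13 and 2.19 RPKM under oxygen and at 5.11, 5.69 and 5.62 RPKM in air. Every oxygen library was below every room-air library. Per3 fell by 0.99 ± 0.16 on the log2 scale on 60% fat, 1.98-fold lower (adjusted p = 0.000185). It fell by 1.12 ± 0.16 on 10% fat, 2.17-fold lower (adjusted p = 8.08e-05). The added 0.5 RPKM understates the change of a gene at this level. The ratio of Cry1 to Per3 was 6.75 to 12.4 in the 6 oxygen libraries and 0.970 to 2.65 in the 6 room-air libraries.

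Per1, a Period gene induced quickly by light and hormones, was among the most abundant of the 10. On 60% fat it was at 64.2, 59.2 and 70.2 RPKM under oxygen and at 43.5 and 35.5 RPKM in air. The estimate in the remaining room-air library, replicate 1, had failed in the deposited table, so that group holds 2 values and the fit used 2. On 10% fat it was at 71.6, 70.6 and 91.1 RPKM under oxygen and at 41.8, 34.2 and 25.7 RPKM in air. All oxygen values were above all room-air values. Per1 rose by 0.70 ± 0.18 on 60% fat, 1.63-fold (adjusted p = 0.00562), and by 1.20 ± 0.16 on 10% fat, 2.30-fold (adjusted p = 7.68e-05).

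Per2, a Period gene whose mutation disturbs daily rhythm in mice, passed the test on 60% fat and did not pass it on 10% fat. On that diet it was at 11.3, 12.9 and 13.5 RPKM under oxygen and at 7.70, 10.5 and 10.7 RPKM in air. On 10% fat it was at 13.9, 12.6 and 16.2 RPKM under oxygen and at 13.9, 13.6 and 12.9 RPKM in air, and the groups overlapped. The 60% fat rise was 0.37 ± 0.13, 1.29-fold (adjusted p = 0.0240), and it was lost without oxygen replicate 2 (adjusted p = 0.0670), oxygen replicate 3 (adjusted p = 0.0854) or room-air replicate 1 (change 0.22, adjusted p = 0.106). Fitted on the libraries of the comparison alone, it had an adjusted p of 0.0505. The 10% fat estimate was 0.07 (95% interval -0.21 to 0.35, adjusted p = 0.652). The difference between the diets was tested as an interaction and was not called, as given with the diet comparisons.

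Nr1d1, the haem-binding nuclear receptor that represses Arntl, overlapped Per1 in level in both exposures. It was at 70.0, 72.8 and 64.5 RPKM under oxygen and at 24.5, 30.2 and 51.5 RPKM in air on 60% fat. In the 10% fat lungs the values were 63.1, 66.7 and 61.2 RPKM under oxygen and 38.2, 42.1 and 54.1 RPKM in air. The oxygen libraries were close together and above every room-air library, among which replicate 3 was the highest on each diet. Nr1d1 rose by 1.03 ± 0.21 on 60% fat, 2.04-fold (adjusted p = 0.000994), and by 0.52 ± 0.21 on 10% fat, 1.43-fold (adjusted p = 0.0485). The 10% fat call was lost without any 1 of 5 of its 6 libraries (adjusted p 0.0814 to 0.151) and kept without room-air replicate 3 (change 0.66, adjusted p = 0.0251). It held in 9 of 18 other settings.

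Nr1d2, its paralogue, was at 19.6, 28.4 and 23.4 RPKM under oxygen and at 10.3, 9.97 and 22.0 RPKM in air on 60% fat. On 10% fat it was at 19.0, 21.5 and 22.6 RPKM under oxygen and at 14.1, 14.2 and 20.9 RPKM in air. The groups overlapped on both diets through room-air replicate 3. Nr1d2 rose by 0.81 ± 0.26 on 60% fat, 1.76-fold (adjusted p = 0.0149), a call lost without oxygen replicate 2 (adjusted p = 0.0629), room-air replicate 1 (adjusted p = 0.0643) or room-air replicate 2 (adjusted p = 0.0652). The 10% fat change of 0.37 ± 0.26 was not called (adjusted p = 0.235).

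Dbp, the clock output factor of the PAR bZIP family, varied most within groups among the 9 with 12 values. On 60% fat it was at 7.29, 11.7 and 7.14 RPKM under oxygen and at 2.49, 3.12 and 8.94 RPKM in air. On 10% fat it was at 5.71, 6.47 and 4.50 RPKM under oxygen and at 3.72, 3.0 and 6.01 RPKM in air. Room-air replicate 3 lay within the oxygen range on each diet, so the groups overlapped. Dbp rose by 0.94 ± 0.37 on 60% fat, 1.92-fold (adjusted p = 0.0411), and the change of 0.39 ± 0.37 on 10% fat was not called (adjusted p = 0.384). Without room-air replicate 3 the 60% fat change was 1.45 (adjusted p = 0.000700), and the call was lost without any 1 of the other 5 libraries of that comparison (adjusted p 0.0518 to 0.174), with the change at 0.62 without room-air replicate 1. The call held in 10 of 18 other settings. Dbp was also the member with the fewest reads, roughly 94.7 to 412 a library.

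With both room-air libraries numbered 3 left out, a setting chosen after seeing the data, 7 of the 9 clock genes that could be fitted were called on 60% fat and 6 of 9 on 10% fat. Over all genes the shares called were then 58.0% and 54.8%. Arntl was not called on 60% fat (0.18, adjusted p = 0.139). On 10% fat Nr1d2 (0.55, adjusted p = 0.00601) and Dbp (0.64, adjusted p = 0.0261) joined the calls. Cry1 and Per3 were called on both diets in every fit that left out 1 library, as were Clock and Nr1d1 on 60% fat and Per1 wherever it could be fitted.

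Exons of 3 members overlap those of a gene on the other strand in the GENCODE M21 annotation, and the sources used here do not say whether reads were counted by strand. Nr1d1 shares 263 bases with Thra, the thyroid hormone receptor alpha gene, which fell by 0.75 on 60% fat (adjusted p = 0.000614) and by 0.41 on 10% fat (adjusted p = 0.0271) while Nr1d1 rose. Dbp shares 539 bases with Sphk2, a sphingosine kinase gene, which rose by 0.50 (adjusted p = 0.00231) and by 0.30 (adjusted p = 0.0426). Arntl shares 33 bases with Gm45355. The share of reads that came from the partner was not tested.

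With all libraries, room-air libraries spread more than oxygen libraries for all 9 clock genes with 12 values. Without the room-air libraries numbered 3 they did so for 6 of the 9, near the 63.9% of all genes in that setting. The within-group SD on the log2 scale was 0.43 in air and 0.076 under oxygen for Nr1d1, a ratio of 5.58, and 0.18 and 0.031 for Clock, a ratio of 5.77. The ratio was 3.45 for Arntl, 2.85 for Per3, 2.39 for Nr1d2, 2.21 for Dbp, 1.74 for Npas2, 1.27 for Cry1 and 1.22 for Per2. Across all 13310 genes with 12 values the spread was also larger in air for 66.6%, with a median ratio of 1.33. Without those 2 libraries the ratio was below 1 for Nr1d2 (0.121), Cry1 (0.213) and Dbp (0.601). It was 1.02 for Npas2, 1.29 for Arntl, 1.42 for Per2, 1.60 for Per3, 2.18 for Nr1d1 and 7.99 for Clock, with a median of 1.35 over all genes. These are descriptions, with no test.

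Within groups, Arntl and Nr1d1 ran in opposite directions. As deviations from group means over 12 libraries, their Pearson's r was -0.95 (Spearman's rho -0.92), the lowest of the 13309 genes set against Arntl. In the 6 room-air libraries r was -0.99 and in the 6 oxygen libraries, where both hardly varied, -0.29. Without both room-air libraries numbered 3 it was -0.86 over 10. Dbp deviated with Nr1d1 (r = 0.92, rank 2 of 13309) and Nr1d2 (r = 0.91, rank 7) and against Arntl (r = -0.84). Without those 2 libraries the values were 0.77, 0.74 and -0.56. In the 6 oxygen libraries alone they were 0.82, 0.55 and -0.03. The pairs were picked out by this ranking and share libraries, so no p is given.

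By the same measure the genes most like Arntl were Syp (r = 0.95), Ptpru (0.93), Clasrp (0.92), Tmem191c (0.92) and Tnk2 (0.92), and the least like it after Nr1d1 were Slc41a2 (-0.93) and Ccl12 (-0.92). Those most like Dbp, beside Nr1d1, were Ccl12 (r = 0.94), Nploc4 (0.92), Cdkn2a (0.91) and Gng10 (0.91), and the least like it were Mrps26 (-0.93), Hey2 (-0.91) and Trappc9 (-0.91). Among the members, Cry1 (0.68) and Npas2 (0.65) deviated with Arntl, and Nr1d2 (-0.78) and Per3 (-0.72) against it. The exposures differed in this. In the 6 room-air libraries r of Arntl was 0.88 with Npas2, -0.95 with Nr1d2 and 0.77 with Cry1. In the 6 oxygen libraries it was -0.58 with Npas2, 0.53 with Nr1d2 and 0.59 with Cry1. With the room-air libraries numbered 3 left out, r of Arntl with Npas2 was 0.23 and with Nr1d2 -0.35.

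**Figure D4:**
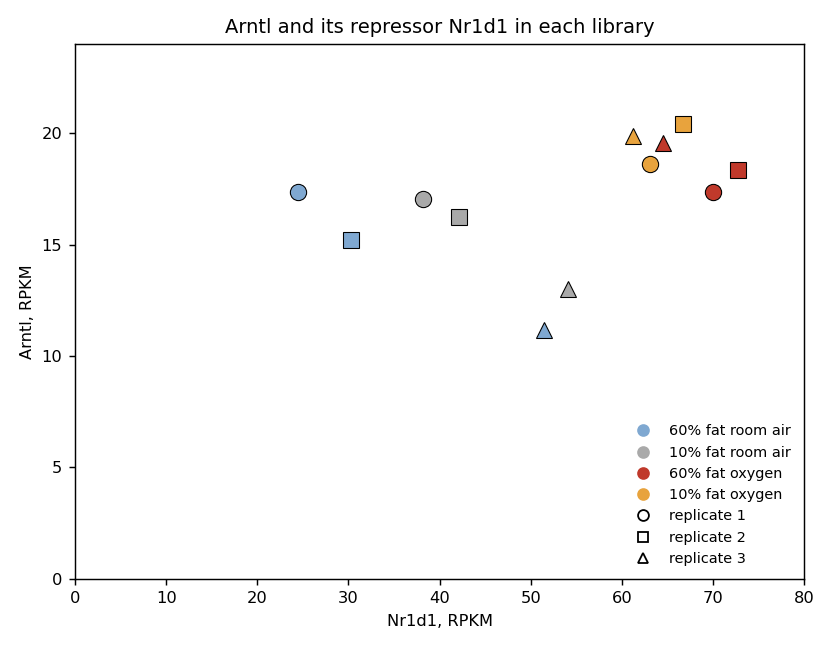
RPKM of Arntl against RPKM of Nr1d1 in each of the 12 libraries, coloured by group and with a symbol for each replicate number; both axes start at 0. The room-air libraries run from 24.5 RPKM of Nr1d1 with 17.3 of Arntl to 51.5 with 11.2, and the oxygen libraries stand together at the upper right, at 61.2 to 72.8 RPKM of Nr1d1 and 17.4 to 20.4 of Arntl.

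Between exposures, mean levels of both Nr1d1 and Arntl were higher under oxygen than in air on each diet, although the Arntl difference on 10% fat did not pass the test. The ratio of Nr1d1 to Arntl was 3.08 to 4.03 in the oxygen libraries and 1.41 to 4.61 in room air, where the libraries numbered 3 had 4.61 and 4.15. Dbp over Arntl was 0.226 to 0.638 under oxygen and 0.144 to 0.801 in room air, again with the libraries numbered 3 highest among the air lungs, at 0.801 and 0.462.

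Diet was compared within each exposure, without a block for the replicate number. In room air, 0 of the 10 clock genes was called between 60% and 10% fat by limma, against 0.15% of all tested genes (0.0976% higher and 0.0525% lower), and 2 had an unadjusted p under 0.05. These were Per2, at -0.47 ± 0.13 with groups that did not overlap (95% interval -0.75 to -0.19, adjusted p = 0.164), and Clock, at -0.23 ± 0.10 (-0.45 to -0.0024, adjusted p = 0.407). By p they ranked 251 and 1565 among the 13324 genes tested, so many other genes passed the same unadjusted threshold. The others had adjusted p-values of 0.487 to 0.983. Groups that did not overlap were seen for 1 of the 10, against 14.1% of all tested genes. Nr1d1 was at -0.39 (95% interval -0.85 to 0.06) and Dbp at 0.03 (-0.77 to 0.83), the widest interval of the 10.

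Under oxygen, 0 of the 10 was called between the diets (0.00751% of all tested genes), and 0 had an unadjusted p under 0.05. Adjusted p-values ran from 0.744 to 0.994. The groups did not overlap for 2 of the 10, against 18.2% of all tested genes. These were Per1 (-0.26 ± 0.16, 95% interval -0.62 to 0.10) and Dbp (0.58 ± 0.37, -0.22 to 1.38). Clock was nearly equal between the diets, at 0.01 (-0.22 to 0.23).

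The oxygen change itself was tested for a difference between the diets as an interaction. Of the 10 clock genes, 0 was called (0.0375% of all tested genes), and 0 had an unadjusted p under 0.05. The estimate, 60% minus 10% fat, was 0.51 for Nr1d1 (95% interval -0.13 to 1.15, adjusted p = 0.589), -0.50 for Per1 (-1.04 to 0.04, adjusted p = 0.525) and 0.30 for Per2 (-0.10 to 0.69, adjusted p = 0.605). It was 0.55 for Dbp (-0.58 to 1.69, adjusted p = 0.756) and -0.02 for Cry1 (-0.48 to 0.43, adjusted p = 0.978). The larger number of calls on 60% fat was therefore not shown to be a difference between the diets. The comparisons share their control groups, so their values are given side by side only.

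A wider list of 25 other clock genes gave 23 that could be tested, with Rorb and Fbxl21 below the filter. On 60% fat 13 rose and 4 fell (median change 0.36), and on 10% fat 14 rose and 2 fell (median 0.53), beside the shares of all genes given above. The 5 repressors of this list all rose on both diets. Bhlhe41 (DEC2) rose by 1.52 (adjusted p = 0.000387) and 0.95 (adjusted p = 0.00944) on 60% and 10% fat, and Bhlhe40 (DEC1) by 1.38 (adjusted p = 8.71e-05) and 1.10 (adjusted p = 0.000571). Both are E-box repressors. Nfil3, which opposes DBP on D-box sequences, rose by 0.86 (adjusted p = 0.00767) and 1.01 (adjusted p = 0.00303). Cry2 rose by 0.36 (adjusted p = 0.0424) and 0.53 (adjusted p = 0.00621), and its 60% fat call held in 10 of 18 other settings.

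Gm129, the older symbol of Ciart (CHRONO), a repressor of the ARNTL complex, was at 14.9, 15.3 and 17.9 RPKM under oxygen and at 7.84, 8.32 and 7.42 RPKM in air on 60% fat. On 10% fat it was at 15.5, 18.5 and 14.7 RPKM under oxygen and at 12.1, 12.1 and 10.2 RPKM in air. The rise was 0.98 (adjusted p = 8.74e-06) and 0.48 (adjusted p = 0.00218). Its level in room air was lower on 60% than on 10% fat with no overlap, at -0.52, which did not pass the test (adjusted p = 0.0861). It passed in 2 of 19 other settings, with the replicate number as a block within each exposure (adjusted p = 0.0348) and without 60% fat room-air replicate 2 (adjusted p = 0.0322).

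Of the activators on this list, Rora, a nuclear receptor that opposes NR1D on ROR elements, rose by 0.78 (adjusted p = 0.00222) and 0.65 (adjusted p = 0.00744) on 60% and 10% fat. Arntl2, the paralogue of Arntl, was not called, at 0.29 and 0.13.

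Among outputs and stability factors, the smallest p-values were those of Alas1 and Timeless. Alas1, the first enzyme of haem synthesis, fell by 1.57 (adjusted p = 5.98e-07) on 60% fat and by 1.58 (adjusted p = 7.73e-07) on 10% fat. Timeless, a replication-fork protein linked to the clock, fell by 1.40 (adjusted p = 7.50e-07) and 1.43 (adjusted p = 8.67e-07). Wee1, the mitotic kinase that the clock drives in mouse liver, rose by 1.54 (adjusted p = 1.02e-05) and 1.62 (adjusted p = 8.31e-06). Nampt, which makes a precursor of NAD, rose by 0.87 (adjusted p = 2.96e-05) and 0.77 (adjusted p = 8.84e-05), and Fbxw11, an F-box protein that marks PER proteins for breakdown, by 0.66 (adjusted p = 1.38e-05) and 0.60 (adjusted p = 3.47e-05). Btrc, a stability factor of the same list, ran the other way, at 3.47 to 5.80 RPKM in air and 2.94 to 3.65 RPKM under oxygen. It was called lower in 17 of 18 other settings on 60% fat and in 3 of 18 on 10% fat. Of the DBP relatives, Hlf was not called on either diet (-0.01 and 0.13), and Tef was at 0.13 (adjusted p = 0.583) on 60% fat and rose by 0.54 (adjusted p = 0.0296) on 10% fat, a call that held in 13 of 18 other settings.

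**Figure D5:**
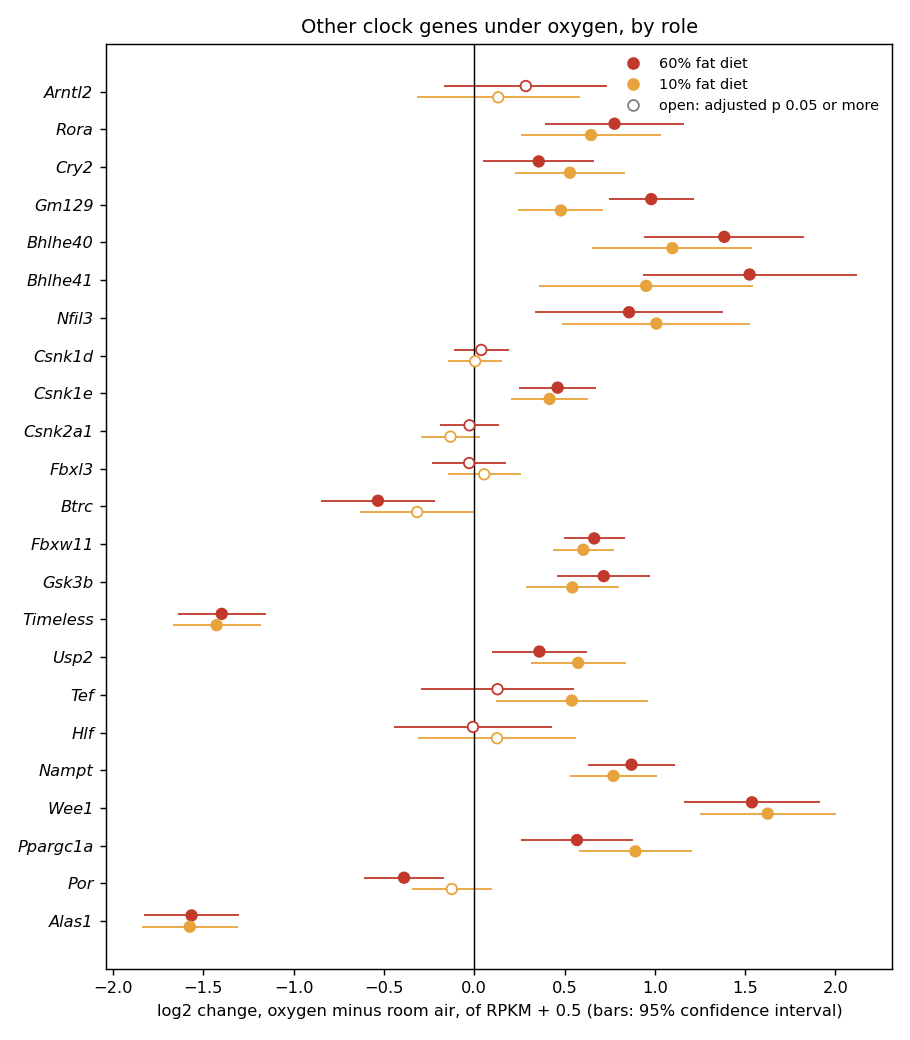
Change of 23 other clock genes under oxygen, grouped from activators at the top through repressors and stability factors to outputs, as the limma estimate of log2(RPKM + 0.5) in oxygen minus room air with its 95% confidence interval; open circles have an adjusted p of 0.05 or more. The 5 repressors from Cry2 to Nfil3 are right of 0 on both diets, while Timeless and Alas1 lie between -1.4 and -1.6.

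Between the diets, 0 of these 23 was called by limma in room air, under oxygen or in the interaction in the main fit. In each of these, 1 gene had an unadjusted p under 0.05. After Gm129 the smallest p-values in room air were those of Bhlhe40 (-0.39, adjusted p = 0.471) and Nampt (-0.16, adjusted p = 0.599). Under oxygen they were those of Por (-0.24, adjusted p = 0.577), Ppargc1a (-0.29, adjusted p = 0.657) and Tef (-0.38, adjusted p = 0.675).

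Most genes of 2 lists, of glucocorticoid response and of temperature response, differed between the exposures. Of 14 glucocorticoid response genes, Per1 included, 11 rose and 1 fell on each diet, beside 26.3% and 25.3% of all tested genes higher and 36.5% and 34.2% lower on 60% and 10% fat. Fkbp5, a co-chaperone induced by the receptor, rose by 2.32 on both diets (adjusted p = 2.85e-05 and 3.46e-05), while Tsc22d3 (GILZ), also a receptor target, fell by 1.11 (adjusted p = 0.000334) and 0.85 (adjusted p = 0.00249). The 14 summed to 5175 to 7054 RPKM under oxygen and 921 to 2263 RPKM in air. Most of the oxygen sum was Mt1 and Mt2, metallothionein genes, and the 12 others summed to 1912 to 2476 RPKM under oxygen and 741 to 1888 RPKM in air. The lowest air sums were those of 60% fat room-air replicate 1, where Per1 had no value and was left out of the sum. The highest were those of 10% fat room-air replicate 3, where Lcn2 alone was at 1164 RPKM. Of 6 temperature response genes, the cold-inducible Cirbp (1.84 and 2.62) and Rbm3 (2.15 and 2.56) rose and the 4 heat shock genes, such as Hsph1 (-1.48 and -3.33), fell on each diet, beside 62.8% and 59.5% of all tested genes called. Their part in the clock values was not tested.

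RNA of some cell marker lists differed between exposures. Of 54 cell type markers tested, cardiac muscle and adipocyte markers included, 5 rose and 29 fell on 60% fat. On 10% fat 2 rose and 25 fell. These counts stand beside 62.8% and 59.5% of all tested genes called in either direction on 60% and 10% fat. All 5 cardiac muscle markers and 2 of 4 adipocyte markers were among those that fell on each diet. The share of the 54 called was 63.0% on 60% fat, and on 10% fat 27 were called and 27 were not, so the counts of calls were near or below the share of all genes. As shares of the 54, 53.7% and 46.3% fell, against 36.5% and 34.2% of all genes. None of the 54 was at 0 in all libraries, and Sln, a cardiac marker, was at 0 in 1 oxygen library. Summed club cell markers were at 105423 to 184354 RPKM in air and 14906 to 25928 RPKM under oxygen, alveolar type 2 markers at 24379 to 36414 and 10379 to 16852 RPKM, and cardiac muscle markers at 230 to 391 and 22.4 to 79.8 RPKM. Endothelial markers, summed to 827 to 1127 RPKM in air and 875 to 1021 RPKM under oxygen, overlapped in sum, although single genes differed. Aplnr was at 7.72 to 20.1 RPKM in air and 0.767 to 1.11 RPKM under oxygen. Of the 5 endothelial markers, 1 rose and 2 fell on 60% fat, and 0 rose and 1 fell on 10% fat, beside the shares of all genes above. The part of these markers' cells in the clock values was not tested. Library depth, estimated roughly from the smallest steps of the values, was 20800000 to 28300000 reads.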

How the data were processed

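RNA of 12 lung samples in 4 groups of 3, by diet and exposure, was measured by sequencing. Per the labels' protocols, lungs were flash frozen and total RNA was extracted with Trizol and a column kit. The submitters' processing notes list bcl2fastq 2.19, TopHat2 2.0.11 and the builds mm8 and mm9, with no role for either build. The sources used here do not give how RPKM was computed or whether by strand. The deposited values are RPKM, computed by the authors, with a status for each value.

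The members, the lists of other genes and the tests were chosen with earlier results of these data known. All 10 members and, from the lists, the genes with the smallest p-values were named. From the list of other clock genes, 1 gene is not reported here and is not counted in it. Failed estimates (85 values in 26 genes) were set to missing and 208 low-data genes were left out. A gene was kept if 3 or more libraries reached 1 RPKM and every group had 2 or more values, which left 13324. limma 3.58.1 (R 4.3.3) was fitted to log2(RPKM + 0.5) over all 12 libraries with a mean trend and no block, two-sided, with Benjamini-Hochberg adjustment over all genes tested and a threshold of 0.05. There were 8 residual and 4.26 prior degrees of freedom. Fold changes are on the log2(RPKM + 0.5) scale, which understates changes of low genes. The fit was tested on simulated data. RPKM divides by the total, so a few abundant genes can shift the rest, and other scalings were tried.

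Depth was estimated from the steps of low values in 13847 genes with transcripts of at least 1000 bases (20800000 to 28300000 reads). It is rough, and read counts were not used here. Samples with the same number deviated together within an exposure (r 0.293 to 0.486 in 6 pairs) and not across exposures (r -0.131 to 0.220 in 12 pairs). This pairing comes from the data and not from the labels. The diet tests of the main fit used no block and so ignored it. The number served as a block within each exposure only in an alternative setting. Alternatives were other pseudocounts, filters, scalings and variance models, blocks and leaving out libraries.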

Additional observations from a re-analysis of the deposited data

How the results depend on the processing

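Across the settings that left out no library of the comparison, 6 to 9 clock genes were called under oxygen on 60% fat and 4 to 6 on 10% fat. Leaving out 1 library gave 5 to 7 on 60% fat and 3 to 5 on 10% fat. In the main fit 62.8% and 59.5% of all tested genes were called on 60% and 10% fat. The counts alone therefore did not set the clock genes apart. The counts moved by over 1.5 times without 60% fat oxygen replicate 2 (5), 60% fat room-air replicate 2 (5) and 10% fat room-air replicate 2 (3). Diet and interaction counts of the 10 clock genes stayed at 0 in every setting run.

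With the replicate number as a block within each exposure, the pairing changed no call of the clock core genes: 0 of 9 were called in either diet comparison or in the interaction. That block was not run for the oxygen comparisons, since it lies within an exposure. With 1 block shared by all groups, 8 of 9 and 5 of 9 were called under oxygen. The shares of all tested genes called in the main fit were 62.8% and 59.5%. The check of pairing did not bear out such a block across exposures. Per1 had too few values for the block fits.

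Of the results for single genes outside the fits that left out 1 library, 563 kept direction and side of the threshold, 14 no longer passed, 7 passed newly and 14 turned direction; the cause was not tested. None of those 14 was called. Under median-ratio scaling Dbp in the room-air diet comparison was -0.0017 and Clock in the oxygen diet comparison -0.014. Under quantile normalization Npas2 was 0.065 and 0.15 under oxygen on 60% and 10% fat, Dbp -0.0077 and Clock -0.0050 in those diet comparisons, and Cry1 0.014 in the interaction. Rescaled without Scgb1a1, Dbp was -0.010, Clock -0.0037 and the Cry1 interaction 0.0064. Without both room-air libraries numbered 3, chosen after seeing the data, the room-air diet change was 0.16 for Npas2, 0.022 for Cry1 and -0.22 for Dbp, and the Arntl interaction was -0.055.

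Leaving out 1 library turned the direction of uncalled values only. Under oxygen these were Npas2 (-0.48 to 0.053 on 60% fat, -0.20 to 0.10 on 10% fat) and Per2 on 10% fat (-0.021 to 0.15). In the room-air diet comparison they were Per3 (-0.24 to 0.15), Npas2 (-0.26 to 0.27), Cry1 (-0.27 to 0.022), Dbp (-0.48 to 0.35) and Arntl (-0.23 to 0.079), and in the oxygen diet comparison Clock (-0.011 to 0.024). In the interaction they were Cry1 (-0.21 to 0.085), Arntl (-0.17 to 0.14), Npas2 (-0.40 to 0.13) and Per3 (-0.044 to 0.34). Dbp and Npas2 had the lowest rough read estimates of the members (94.7 and 274 in the lowest library), and the part of depth in their spread was not tested.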

Other observations

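Over all 12 libraries, on log2 values that include the group differences, likeness ranked other genes than the deviations within groups did. The genes most like Arntl were AI846148 (Pearson's r = 0.91), Fzd1 (0.90), Mprip (0.90), Tnk2 (0.89) and Cxxc1 (0.89), and the least like it were Cd5 (-0.93), Cxcr6 (-0.93) and Ifi30 (-0.93). Among the clock genes Cry1 stood at 0.84 and Per3 at -0.84, while Nr1d1 stood at 0.28. Those most like Dbp were Fut4 (0.91), Ccl12 (0.91), Nr1d2 (0.89), Zdhhc23 (0.88) and Dclk1 (0.88), and the least like it were Pcgf2 (-0.87), Acbd4 (-0.86) and Dnm1 (-0.86). Tnk2 was near the top for Arntl, and Ccl12 near the top for Dbp, by both measures. These values are descriptions over 12 libraries that share exposure and depth.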
